A study of Mus musculus with 8 samples.

Results

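Expression of 10 genes of the plasma cell secretory program was compared between infarcts of vehicle-treated and HPβCD-treated aged mice. The genes are Prdm1, Irf4, Xbp1, Bhlha15, Pou2af1, Jchain, Mzb1, Derl3, Txndc5 and Tnfrsf17. They were chosen by name, by matching Ensembl identifiers to mouse gene symbols, and they make up 10 of the 46078 genes listed in each library. All 10 passed the filter on low counts, which kept 14736 genes. Bulk RNA-Seq (sequencing of messenger RNA from whole tissue pieces) was done on wild type male C57BL/6J mice, an inbred laboratory strain, at 18 months of age. All of them were given a DH stroke, a model that combines occlusion of the middle cerebral artery at a distal site with hypoxia. Vehicle-treated mice (n = 4) received phosphate-buffered saline under the skin and HPβCD-treated mice (n = 4) received 4 g/kg of 2-hydroxypropyl-β-cyclodextrin, a cyclic sugar that solubilizes cholesterol and other lipids. Both groups were injected 3 times a week over 6 weeks, starting 1 week after the stroke, and the infarct was taken at week 7. The pieces were recognized visually and dissected manually, and each library holds RNA of every cell type in the piece. No uninjured tissue and no second time point was analyzed here.

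Plasma cells are the antibody-secreting end stage of the B lymphocyte lineage. During this conversion the transcription factors Irf4 and Prdm1 shut down the B lymphocyte program, and Xbp1 and Bhlha15 enlarge the endoplasmic reticulum (ER) and the secretory machinery. Antibody chains are then folded, joined and exported by ER proteins such as Mzb1 and Txndc5, while Jchain links immunoglobulin A or M subunits into polymers. Clusters of B lymphocytes and plasma cells are known to form in chronic stroke infarcts. Several of these genes are not restricted to plasma cells, since Xbp1 and Txndc5 act in most secretory cells and Prdm1 acts in T lymphocytes and myeloid cells.

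The stretches upstream of the start sites are shown for the 3 genes whose difference between the groups passed the test, Jchain, Bhlha15 and Pou2af1. They are the 250 bases before the RefSeq transcription start on build GRCm38.p6, printed 5′ to 3′ on the strand of the gene. Capitals mark the only match to a searched motif. The Jchain stretch lies at chr5:88527898-88528147 on the minus strand, the Bhlha15 stretch at chr5:144190036-144190285 on the plus strand and the Pou2af1 stretch at chr9:51213440-51213689 on the plus strand.
Jchain: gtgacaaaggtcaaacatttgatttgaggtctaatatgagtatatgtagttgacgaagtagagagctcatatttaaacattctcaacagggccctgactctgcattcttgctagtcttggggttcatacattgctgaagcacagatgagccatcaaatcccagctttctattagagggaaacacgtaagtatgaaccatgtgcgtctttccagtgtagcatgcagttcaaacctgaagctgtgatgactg
Bhlha15: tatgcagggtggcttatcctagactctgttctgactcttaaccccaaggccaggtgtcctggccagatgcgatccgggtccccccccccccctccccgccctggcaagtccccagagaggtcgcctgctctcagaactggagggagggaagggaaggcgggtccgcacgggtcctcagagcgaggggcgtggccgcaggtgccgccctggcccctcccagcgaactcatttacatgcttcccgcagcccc
Pou2af1: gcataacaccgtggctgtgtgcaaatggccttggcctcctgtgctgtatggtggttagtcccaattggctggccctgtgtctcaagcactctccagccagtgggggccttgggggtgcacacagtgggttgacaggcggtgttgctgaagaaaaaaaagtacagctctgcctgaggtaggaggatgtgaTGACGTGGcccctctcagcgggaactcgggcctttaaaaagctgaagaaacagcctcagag

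RefSeq promoter entries, each of 250 bases before and 50 bases after a start, were found for 9 of the 10 genes, with 11 entries in all. Each of 3 motifs was searched on both strands. The octamer ATGCAAAT, bound by the POU factors that Pou2af1 assists, was in none of the 11 entries and in 1.75% of all 32544 promoters. The core of the unfolded protein response element, TGACGTGG, to which XBP1 can bind, was in entries of 2 genes and in 0.682% of all promoters. In Pou2af1 it began 61 bases upstream of the start, and in Txndc5 it was in 1 of 3 entries, 138 bases upstream. All 250 bases before the start of that Txndc5 entry are exon sequence, against 0 in the Pou2af1 entry. The letters GAAAGTGA, shared by sites of IRF factors and of PRDM1, were in the entry of Irf4, 4 bases upstream on the opposite strand, and in 1.47% of all promoters. A match describes the letters only, and binding was not measured.

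Fold changes of all 10 genes were below 0 in HPβCD-treated infarcts, as were those of 54.1% of all tested genes, and with limma-voom 9 of the 10 were, Txndc5 being at 0.03. The median log2 fold change was -1.55 over the 10 genes and -0.05 over all tested genes. Jchain, Bhlha15 and Pou2af1 fell at an adjusted p under 0.05 (edgeR quasi-likelihood test with Benjamini-Hochberg adjustment over all 14736 genes, used for every adjusted p below unless another tool is named). These are 3 of 10 genes, against a background of 0.774% of tested genes called lower and 1.17% called higher. For 6 of the 10 genes every HPβCD-treated animal lay below every vehicle-treated animal, which held for 8.03% of all tested genes. Bhlha15 and Tnfrsf17, which are among these, had few reads in HPβCD libraries and passed the filter on low counts through the vehicle group. Their part in these counts is therefore not independent of the filter. Without it the fold changes were -3.54 for Bhlha15 (edgeR adjusted p = 0.0337) and -2.01 for Tnfrsf17 (edgeR adjusted p = 0.0872). DESeq2, the tool the study used, called 6 of the 10 lower, against 11.1% of the genes for which it gave an adjusted p. An unadjusted edgeR p under 0.05 with a lower level was found for 7 of the 10 genes, against 16% of all tested genes. These 7 had fold changes from -4.0 to -1.37, while Xbp1, Prdm1 and Txndc5 lay between -0.28 and -0.07. In bulk tissue, fewer cells of a type and less RNA per cell cannot be told apart.

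**Figure D1:**
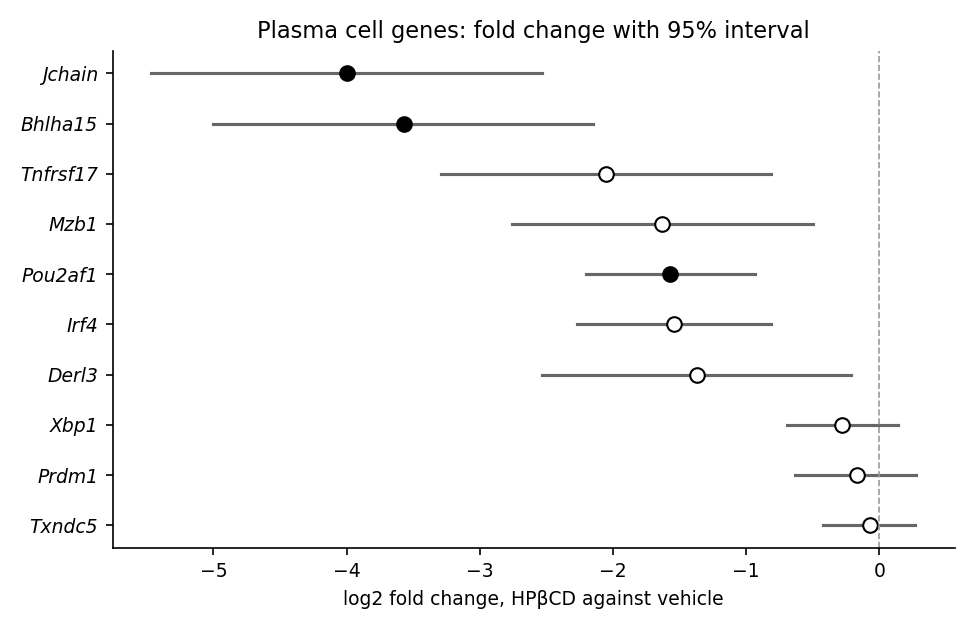
The log2 fold change of each gene (HPβCD against vehicle, x axis) is shown as a point with its 95% interval, filled where the edgeR adjusted p was under 0.05. Jchain (-4.0) and Bhlha15 (-3.57) lie farthest from 0, and the intervals of Xbp1, Prdm1 and Txndc5 span 0.

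Libraries held 16.6 M to 32.9 M gene counts, the deepest being that of vehicle-treated animal 2. Marker transcripts of other cell types also differed between libraries. CPM (read counts relative to the library total, scaled with TMM factors) were summed over 9 neuron markers, 7 of which passed the filter on low counts. The sums were 6109 in vehicle-treated animal 3 and 1037 in vehicle-treated animal 1. They were 18.2 and 41.1 in the other vehicle-treated animals and 7.84 to 84.5 in HPβCD-treated animals. Summed macrophage markers ranged from 10037 to 21872 CPM in vehicle-treated and from 26663 to 32866 CPM in HPβCD-treated animals. The largest parts of these sums were Lyz2 (group means of 9421 and 18009.8 CPM) and Gpnmb (4154 and 10803 CPM). Cd68, at a log2 fold change of 0.88, also did not overlap between the groups, whereas Adgre1 (0.43), Csf1r (0.13) and Mrc1 (-0.01) did. The median of the macrophage markers was 0.65, and 0.34 without vehicle-treated animals 1 and 3. Summed fibroblast markers ranged from 2152 to 4830.2 CPM and from 6939 to 7757 CPM. The part of these differences in the results on plasma cell genes was not tested, and the fit without vehicle-treated animals 1 and 3 is given for the called genes.

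Among the transcription factors, Bhlha15, also called Mist1, showed the widest separation. This factor scales up the secretory apparatus of professional secretory cells (ENSMUSG00000052271, GRCm38 chromosome 5, 144190286 to 144194441, plus strand). Its expression was 2.88, 2.27, 5.81 and 2.96 CPM in vehicle-treated animals 1 to 4 and 0.747, 0.123, 0.107 and 0.167 CPM in HPβCD-treated animals 1 to 4. The groups did not overlap, and HPβCD-treated animal 1 stood above the others of its group. The counts behind the last 3 values were 2, 2 and 3 reads, against 51 to 96 reads in vehicle libraries, so the level in those animals is poorly resolved. Mean expression fell 12.2-fold, from 3.48 ± 1.58 to 0.286 ± 0.308 CPM (SD, n = 4 per group), with a log2 fold change of -3.57 (SE 0.63) and an edgeR adjusted p of 0.0483. DESeq2 gave 6.92e-06 and limma-voom 0.00431. Without HPβCD-treated animal 1 the log2 fold change was -4.64, and over all fits without single animals it ran from -4.64 to -3.21.

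Pou2af1, the B lineage coactivator also known as OCA-B, varied least among the 3 called genes (ENSMUSG00000032053, chromosome 9, 51213708 to 51240080, plus strand). It was measured at 59.7, 98.2, 51.0 and 62.8 CPM in vehicle-treated animals 1 to 4 and at 33, 15.5, 20.6 and 22.6 CPM in HPβCD-treated animals 1 to 4. The lowest vehicle library, that of animal 3, was above the highest HPβCD library, that of animal 1. The mean was 67.9 ± 20.8 CPM against 22.9 ± 7.35 CPM, or -1.57 on the log2 scale (SE 0.28), at an edgeR adjusted p of 0.0483. Without vehicle-treated animals 1 and 3 it was the only gene of the 10 still called, at a log2 fold change of -1.80 and an edgeR adjusted p of 0.034.

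Irf4, required for the plasma cell fate, missed the threshold in the edgeR fit (ENSMUSG00000021356, chromosome 13, 30749226 to 30766976, plus strand). Its values were 58.8, 79.7, 47.3 and 46.1 CPM in vehicle-treated animals 1 to 4 and 29.5, 10.2, 22.1 and 18.0 CPM in HPβCD-treated animals 1 to 4. The groups did not overlap, with animal 1 again the highest of the HPβCD group. Its fold change was -1.54 on the log2 scale (95% interval -2.27 to -0.81, edgeR adjusted p = 0.0516). The adjusted p was 0.000567 in DESeq2, 0.018 in limma-voom, 0.0478 in edgeR without the filter on low counts and 0.0473 in edgeR without vehicle-treated animal 3. These were the only 4 of 16 alternatives that called Irf4. In the others its edgeR adjusted p was above 0.05, and it reached 0.175 without HPβCD-treated animal 2.

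Prdm1, encoding the repressor BLIMP-1, did not separate the groups (ENSMUSG00000038151, chromosome 10, 44437177 to 44528501, minus strand). Expression was 17.4, 27.9, 14.8 and 20 CPM in vehicle-treated animals 1 to 4 and 17.7, 18.2, 18.7 and 16.5 CPM in HPβCD-treated animals 1 to 4. The HPβCD values all fell inside the vehicle range. The log2 fold change was -0.17 with a 95% interval of -0.63 to 0.28 (edgeR adjusted p = 0.623), and without vehicle-treated animal 2 it was 0.04.

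Xbp1, the transcription factor of the unfolded protein response, also overlapped between the groups (ENSMUSG00000020484, chromosome 11, 5520659 to 5525893, plus strand). It stood at 190.5, 284, 165 and 205 CPM in vehicle-treated animals 1 to 4 and at 182, 173, 152 and 191 CPM in HPβCD-treated animals 1 to 4. Vehicle-treated animal 2 was highest, as for Prdm1. On the log2 scale the change was -0.28 (95% interval -0.69 to 0.14, edgeR adjusted p = 0.363). Gene counts do not separate the spliced form of this transcript, which encodes the active factor, from the unspliced form.

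Jchain, the joining chain of polymeric immunoglobulin, was the most abundant of the 10 transcripts in vehicle infarcts and had the largest fold change (ENSMUSG00000067149, chromosome 5, 88519809 to 88527891, minus strand). It was measured at 1344, 2184, 1998 and 858 CPM in vehicle-treated animals 1 to 4. In HPβCD-treated animals 1 to 4 it was 229, 41.0, 49.9 and 78.9 CPM. The lowest vehicle value was above the highest HPβCD value, and the HPβCD animals spread more widely, 5.58-fold from lowest to highest against 2.55-fold in the vehicle group. The mean fell 16-fold, from 1596 ± 609.7 to 99.6 ± 87.6 CPM, with a log2 fold change of -4.0 (SE 0.64) and an edgeR adjusted p of 0.0462. DESeq2 gave 5.85e-10 and limma-voom 0.0133.

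The calls of Jchain, Bhlha15 and Pou2af1 lay close to the threshold, and the smallest adjusted p of any gene in the edgeR fit was 0.0222. Leaving out single libraries moved the log2 fold change of Jchain between -4.81 and -3.74. Its edgeR adjusted p rose to 0.149 without vehicle-treated animal 1 and to 0.0635 without vehicle-treated animal 4. It rose to 0.172, 0.0899 and 0.0527 without HPβCD-treated animals 2, 3 and 4, and it stayed under the threshold without each of the other 3 animals. Bhlha15 lost its call without the same 5 animals, at adjusted p-values of 0.149, 0.0636, 0.175, 0.0899 and 0.0585, and also without HPβCD-treated animal 1, at 0.0606. Pou2af1 lost its call without those 6 animals as well, at 0.149, 0.0647, 0.175, 0.0899, 0.0566 and 0.131 in the same order. Without both vehicle-treated animals 1 and 3 the values were -3.92 (edgeR adjusted p = 0.106) for Jchain and -3.15 (edgeR adjusted p = 0.0521) for Bhlha15. Without vehicle-treated animal 1 or 4, or HPβCD-treated animal 2 or 3, edgeR called 0 genes of all those tested, while 2922 to 4216 had an unadjusted p under 0.05, and the calls of listed genes given below were lost as well. Without vehicle-treated animals 1 and 3, 7 of the 13 called genes outside the 10 kept an adjusted p under 0.05, and Igkc (0.119), Ighd (0.0504), Cxcl12 (0.0527), Cd79b (0.0738), Siglech (0.0889) and Gpnmb (0.0647) did not.

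**Figure D2:**
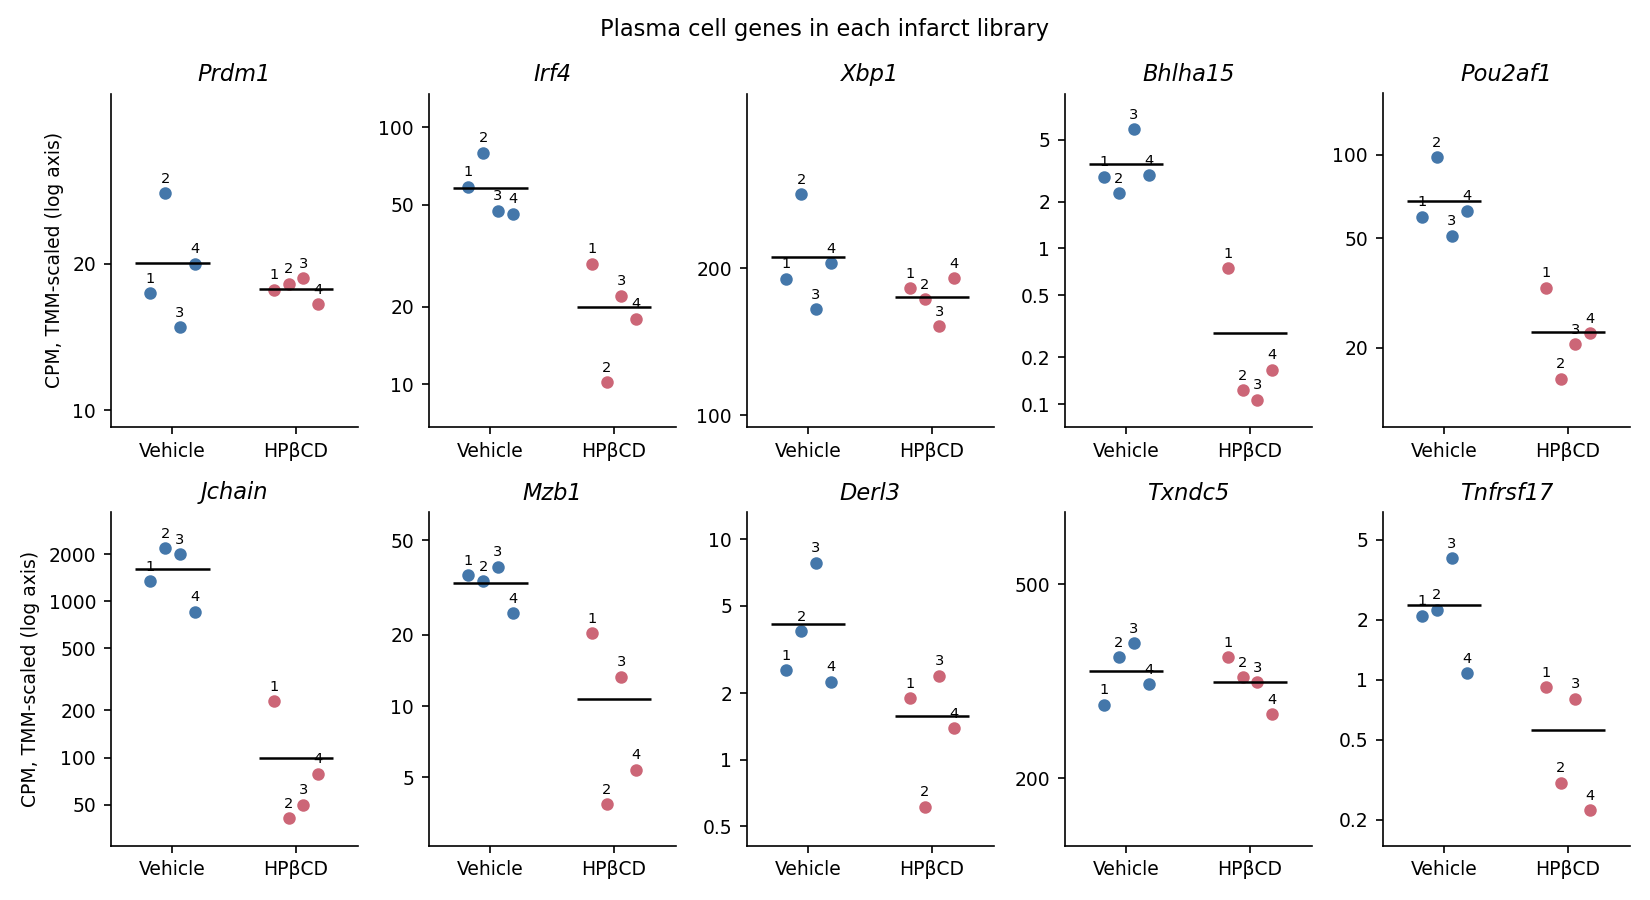
Each panel shows TMM-scaled CPM of a gene on a log axis in the 4 vehicle (blue) and 4 HPβCD (red) libraries, with the animal number above each point and a bar at the group mean. Jchain, Bhlha15, Pou2af1, Irf4, Mzb1 and Tnfrsf17 do not overlap between the groups, whereas Prdm1, Xbp1, Derl3 and Txndc5 do.

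Mzb1, an ER chaperone partner of the marginal zone B and plasma cell lineage, was lower without passing the edgeR threshold (ENSMUSG00000024353, chromosome 18, 35647267 to 35649367, minus strand). It was 35.6, 33.6, 38.8 and 24.7 CPM in vehicle-treated animals 1 to 4 and 20.3, 3.86, 13.3 and 5.38 CPM in HPβCD-treated animals 1 to 4. The groups did not overlap, and the HPβCD animals differed 5.27-fold among themselves against 1.57-fold in the vehicle group. The log2 fold change was -1.63 (95% interval -2.76 to -0.50, edgeR adjusted p = 0.0894; DESeq2 adjusted p = 0.00911). Only 2 of 16 alternatives called Mzb1, DESeq2 and limma-voom (0.0444), and its edgeR adjusted p reached 0.264 without vehicle-treated animals 1 and 3. Its exons share 57.2% of their length with Spata24 on the same strand, and how reads in that stretch were assigned is not given in the sources used here, so the value is uncertain.

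Derl3, a part of the ER-associated degradation channel that is prominent in secretory cells, overlapped between the groups (ENSMUSG00000009092, chromosome 10, 75893413 to 75895941, plus strand). It was 2.55, 3.82, 7.81 and 2.26 CPM in vehicle-treated animals 1 to 4 and 1.90, 0.613, 2.41 and 1.39 CPM in HPβCD-treated animals 1 to 4. HPβCD-treated animal 3 lay above vehicle-treated animal 4. The log2 fold change was -1.37 (95% interval -2.53 to -0.21) and the edgeR adjusted p was 0.127.

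Txndc5, a disulfide isomerase that folds proteins in the ER, overlapped between the groups (ENSMUSG00000038991, chromosome 13, 38500079 to 38528824, minus strand). It was 283, 354, 378 and 312 CPM in vehicle-treated animals 1 to 4 and 354, 322, 315 and 270.4 CPM in HPβCD-treated animals 1 to 4. The values interleaved. The log2 fold change was -0.07 with a 95% interval of -0.42 to 0.27 (edgeR adjusted p = 0.795), an interval that does not reach the fold change of Jchain. Exons of Bmp6 and a predicted gene cover 11.9% of its exonic length on the opposite strand.

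Tnfrsf17 encodes BCMA, the receptor that keeps long-lived plasma cells alive (ENSMUSG00000022496, chromosome 16, 11313812 to 11320074, plus strand). It was 2.09, 2.24, 4.06 and 1.08 CPM in vehicle-treated animals 1 to 4 and 0.919, 0.306, 0.805 and 0.222 CPM in HPβCD-treated animals 1 to 4. The groups did not overlap, although vehicle-treated animal 4 and HPβCD-treated animal 1 were close. This gave a log2 fold change of -2.05 (95% interval -3.29 to -0.81, edgeR adjusted p = 0.0722; DESeq2 adjusted p = 0.00664). Only 2 of 16 alternatives called Tnfrsf17, DESeq2 and limma-voom (0.0349), and its edgeR adjusted p reached 0.209 without HPβCD-treated animal 2. HPβCD libraries held 4 to 16 reads of this gene.

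Animals differed within their groups in a way that several of the genes shared. HPβCD-treated animal 1 had the highest level of its group for 7 of the 10 genes, and HPβCD-treated animal 2 had the lowest level for 5. In the vehicle group, animals 2 and 3 each had the highest level for 5 genes, and animal 4 had the lowest for 5. Vehicle-treated animal 3, which led for Bhlha15, Mzb1, Derl3, Txndc5 and Tnfrsf17, also held the most neuron transcripts. Over the 8 libraries, with each gene's log2 CPM centred within its group, Jchain correlated with Bhlha15 at r = 0.775, Irf4 at 0.729, Pou2af1 at 0.727 and Mzb1 at 0.69, and with Prdm1 at 0.0147. Immunoglobulin genes made up 4 of the 50 genes with the highest r to Jchain and were left out of the ranking that follows. Other genes outside the 10 with the highest r to Jchain were Med6 (0.989), Slu7 (0.922), Oosp1 (0.92), Igsf9 (0.917) and Gm11619 (0.906). For Xbp1 they were Cdc42se2, Efhb, Gorab, Arid4a and Ptpn12 (0.973 to 0.993), and for Txndc5 they were Nrbp1, Cstf3, Eif4g1, Ehmt1 and Blzf1 (0.955 to 0.969). These correlations describe 8 libraries that share their depth and tissue makeup between genes.

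Per kilobase of exon, the order of mean levels differed between the groups. In vehicle infarcts Jchain stood at 634 ± 242 CPM per kb (SD, n = 4), above Txndc5 at 73.9 ± 9.5 and Xbp1 at 65.0 ± 15.7, and the latter pair did not differ beyond their spread. Mzb1 at 27.3 ± 4.98 and Pou2af1 at 26.6 ± 8.15 followed without differing, then Irf4 at 11.8 ± 3.17 CPM per kb. Prdm1, Tnfrsf17, Derl3 and Bhlha15 were lowest, between 3.59 and 0.996 CPM per kb. In HPβCD infarcts the means were 39.6 ± 34.8 CPM per kb for Jchain, 70.2 ± 7.66 for Txndc5 and 53.7 ± 5.09 for Xbp1. There Jchain did not differ from Txndc5 or Xbp1 beyond its spread, so its place in the order of that group is not resolved. HPβCD-treated animal 1 widens the spread of Jchain, at 229 CPM against 41.0 to 78.9 CPM in the others of its group. These genes were not compared within single animals.

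The antibody chains that plasma cells secrete were read from the same libraries. Immunoglobulin genes took 1.01, 1.71, 1.95 and 0.668% of gene counts in vehicle-treated animals 1 to 4 and 0.258, 0.0387, 0.0573 and 0.12% in HPβCD-treated animals 1 to 4, without overlap. Igkc, the kappa constant region, fell by 3.48 on the log2 scale (edgeR adjusted p = 0.0483). Ighm, the heavy chain of immunoglobulin M, was at a log2 fold change of -3.37 and Igha, that of immunoglobulin A, at -2.38, with edgeR adjusted p-values of 0.0722 and 0.0827. The fold change of Ighm was -2.66 without vehicle-treated animal 3 and -4.48 without HPβCD-treated animal 1, and that of Igkc was -4.10 without HPβCD-treated animal 1. Of 11 tested constant regions, 10 had a fold change below 0 and 2, Igkc and Ighd, were called by edgeR, while DESeq2 called 8 lower. Ighg1 stood at 146, 2345, 5.02 and 23.5 CPM in vehicle-treated animals 1 to 4 and between 0.306 and 4.24 CPM in HPβCD-treated animals, and its fold change of -8.46 (edgeR adjusted p = 0.0793) was -5.02 without vehicle-treated animal 2.

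To ask whether Jchain differed by more than transcripts of B lymphocytes, its counts were set against those of Ms4a1, the B lymphocyte surface protein CD20 that plasma cells lack. Ms4a1 was 247, 274, 56.3 and 189 CPM in vehicle-treated animals 1 to 4 and 73.1, 21.6, 56.1 and 48.0 CPM in HPβCD-treated animals 1 to 4, with a log2 fold change of -1.95 (edgeR adjusted p = 0.0796). The log2 ratio of Jchain to Ms4a1 counts was 2.44, 3.0, 5.15 and 2.18 in vehicle-treated animals and 1.64, 0.92, -0.17 and 0.72 in HPβCD-treated animals. The groups did not overlap, and the mean ratio was 3.19 ± 1.35 against 0.78 ± 0.75 (SD, n = 4), a difference of -2.41. The two-sided exact permutation test gave p = 0.0286, the smallest value this design allows, and 0.0571 after Benjamini-Hochberg adjustment over both ratios tested. Vehicle-treated animal 3 had the highest ratio and the fewest Ms4a1 reads of its group, and without it the difference was -1.76 (exact permutation p = 0.0571).

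The log2 ratio of Jchain to all immunoglobulin counts was -2.82, -2.89, -3.38 and -2.89 in vehicle-treated animals 1 to 4 and -3.53, -3.31, -3.58 and -3.92 in HPβCD-treated animals 1 to 4. The groups overlapped through vehicle-treated animal 3 and HPβCD-treated animal 2. The mean was -3.0 ± 0.26 against -3.59 ± 0.25, a difference of -0.59 (two-sided exact permutation test, p = 0.0571, n = 4 per group, also 0.0571 after adjustment over both ratios). Without vehicle-treated animal 3 the difference was -0.72 (exact permutation p = 0.0286).

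**Figure D3:**
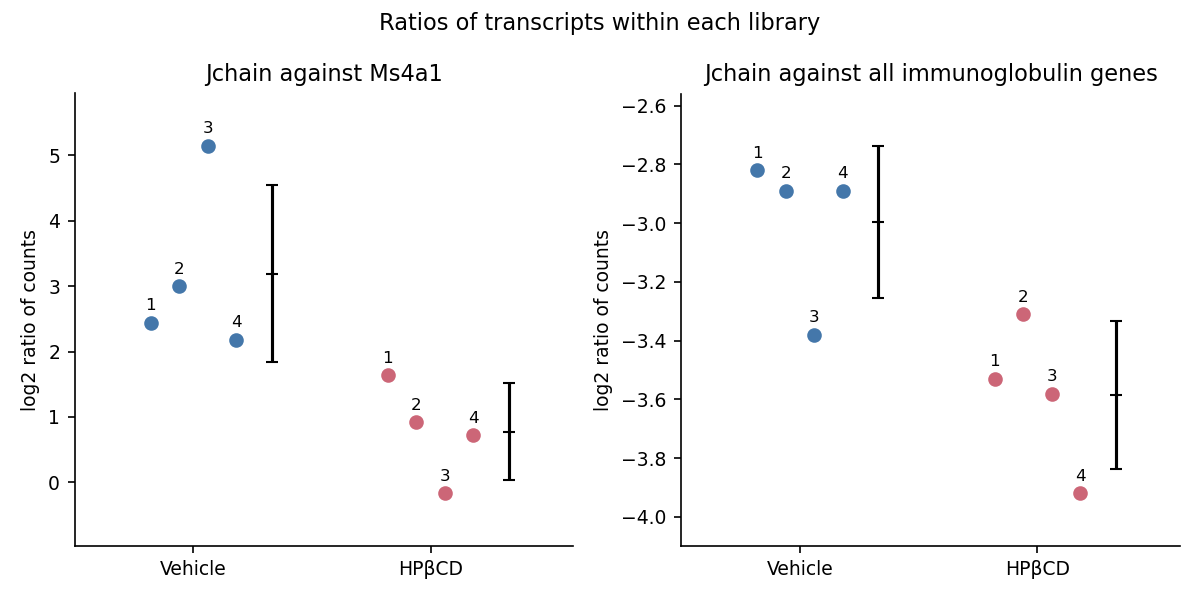
The log2 ratio of Jchain counts to Ms4a1 counts (left) and to all immunoglobulin counts (right) is shown for each vehicle (blue) and HPβCD (red) library, numbered by animal, with the group mean and SD in black. The ratio to Ms4a1 runs from 2.18 to 5.15 in vehicle and from -0.17 to 1.64 in HPβCD libraries, and the ratio to immunoglobulin overlaps between the groups.

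Receptors of the plasma cell gave mixed values. Of 14 surface and homing receptors, 6 had a fold change below 0, 2 were called lower and the median log2 fold change was 0.22. The called pair were Tnfrsf13c, encoding the BAFF receptor of B lymphocytes, at -2.31 (edgeR adjusted p = 0.0472) and Tnfrsf13b, encoding TACI, at -1.22 (edgeR adjusted p = 0.0483). Sdc1, encoding the plasma cell surface marker CD138 that epithelial cells and macrophages can also carry, was 69.1, 139.9, 59.1 and 101 CPM in vehicle-treated and 129.6, 108, 124 and 127 CPM in HPβCD-treated animals 1 to 4. Its groups overlapped, with a log2 fold change of 0.41 (95% interval -0.18 to 0.99, edgeR adjusted p = 0.339). The most abundant of the other receptors were Il6st, Cd38 and Itga4, with fold changes of 0.59, 0.41 and -0.09, none of them called.

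Of the survival ligands, 3 of 6 passed the filter on low counts, and Il6, Il21 and Il10 did not. Cxcl12, the chemokine that holds plasma cells in their niche, was 863 ± 248 CPM in vehicle-treated and 1890.3 ± 218 CPM in HPβCD-treated animals and rose by 1.13 on the log2 scale (edgeR adjusted p = 0.0499). That call was lost in 12 of 16 alternatives, among them DESeq2 size factors (0.0501), scaling without immunoglobulin genes (0.0503), no filter (0.0521) and the fit without vehicle-treated animals 1 and 3 (0.83, edgeR adjusted p = 0.0527). Tnfsf13, encoding APRIL, had 4 to 49 reads per library and shares 60% of its exonic length with Tnfsfm13 on the same strand, so its value of 0.89 (95% interval -0.17 to 1.95) is uncertain, and Tnfsf13b, encoding BAFF, was at 0.15 (95% interval -0.74 to 1.03), with neither of them called. Fibroblasts also make Cxcl12, and the called fibroblast markers Col1a1 (1.61) and Col1a2 (1.46) were higher in the same libraries. The part of fibroblast RNA in the value of Cxcl12 was not tested.

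The general machinery of the secretory pathway, which all cells use, had list medians above 0. Of 80 genes in 4 lists, 18 had an unadjusted edgeR p under 0.05, as did 4094 of all 14736 tested genes, and edgeR called 0 of the 80. DESeq2 called 9 of them higher and 0 lower, among them Sec31a (0.73, edgeR adjusted p = 0.0545, DESeq2 0.00147) and Kdelr1 (0.59, edgeR adjusted p = 0.066, DESeq2 0.00941), against 5.92% of all genes called higher by DESeq2. Of 23 ER chaperones and folding enzymes, 7 had a fold change below 0, and the median log2 fold change was 0.21. The most abundant were Hspa5 (BiP) at 0.24 (95% interval -0.14 to 0.63), Canx (calnexin) at 0.36 (-0.01 to 0.73) and P4hb (protein disulfide isomerase) at 0.73 (0.20 to 1.25, edgeR adjusted p = 0.0948). Of 23 genes of ER translocation and signal peptide processing, 8 were below 0, with a median of 0.06 (-0.03 with library totals only and -0.04 without vehicle-treated animals 1 and 3), and Ssr1, Ssr3 and Tram1 lay between 0.07 and 0.46. Of 16 genes of ER-associated degradation, 4 were below 0, with a median of 0.18, and Derl1, a paralog of Derl3, was at 0.51 (edgeR adjusted p = 0.107), Edem1 at 0.24 and Sel1l at 0.13. Of 18 genes of ER to Golgi transport, 3 were below 0, with a median of 0.29, and Tmed10, Sar1a and Arf4 lay between -0.02 and 0.32.

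Of 11 further regulators of plasma cell differentiation, 9 had a fold change below 0 and the median was -0.40, with 0 called by edgeR and 3 called lower by DESeq2. These were Eaf2 at -1.83, Ikzf3 at -1.32 and Pou2f2 at -0.97, with edgeR adjusted p-values of 0.0624, 0.0645 and 0.0624 and DESeq2 ones of 0.00457, 0.00448 and 0.0063. Eaf2 had 4 to 17 reads in HPβCD libraries and passed the filter on low counts through the vehicle group, so its part in these counts is not independent of the filter. The most abundant, Ets1, Atf6 and Zbtb20, are made by many cells and lay at -0.22, -0.07 and 0.04. Of 8 factors that maintain B lymphocyte identity, 3 were below 0 and the median was 0.05, with the abundant Irf8, Id3 and Bcl6, which other cells also make, at 0.25, 0.18 and 0.07. Pax5, the factor that holds B lymphocyte identity, was at -2.26 without overlap of the groups (edgeR adjusted p = 0.055, DESeq2 0.000142), and Bach2 was at -1.05 (edgeR adjusted p = 0.0621, DESeq2 0.00466). The stress branch that runs through PERK and CHOP had 3 of 7 genes below 0 and a median of 0.01, and Atf4 and Atf3 stood at 0.01 and 0.59. Asns was at -0.72, but at 0.17 without vehicle-treated animal 3, at 0.52 without vehicle-treated animals 1 and 3 and at 0.47 with limma-voom. In this branch edgeR called 0 genes and DESeq2 called Trib3 higher (1.25, DESeq2 adjusted p = 0.0126). Genes named here for their DESeq2 calls were chosen after their values were seen.

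**Figure D4:**
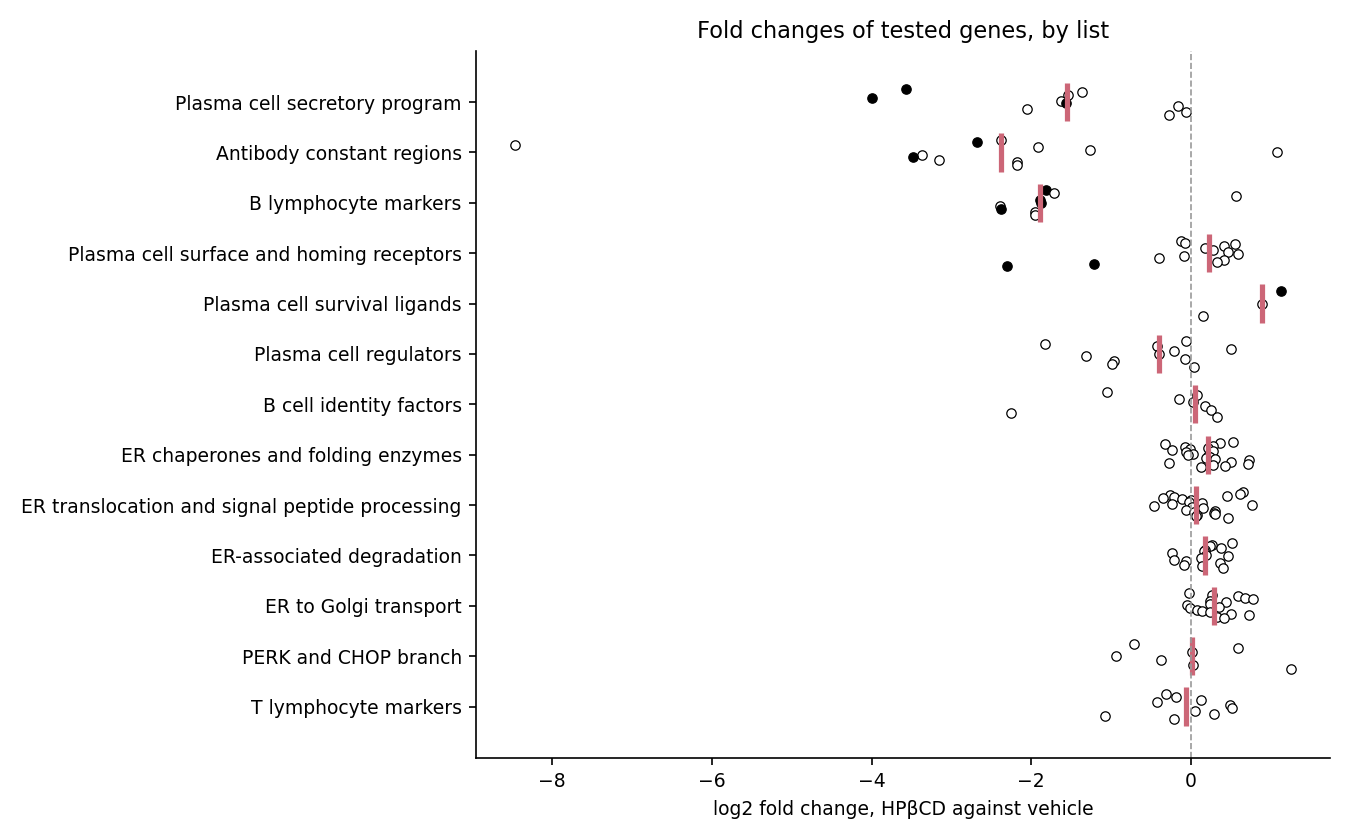
Each point is the log2 fold change of a tested gene (HPβCD against vehicle, x axis), by list (y axis), filled where the edgeR adjusted p was under 0.05, with a red bar at the list median. The medians of the 10 plasma cell genes (-1.55), constant regions (-2.38) and B lymphocyte markers (-1.89) lie below those of the ER lists, which run from 0.06 to 0.29.

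Markers of other immune cells were read in the same libraries. Of 9 B lymphocyte markers, 8 had a fold change below 0. In edgeR 4 were called lower, namely Cd79a (-1.89), Cd79b (-1.88), Fcer2a (-2.38) and Blk (-1.82), against 0.774% of all tested genes. DESeq2 called 8 of them lower and 1 higher, against 11.1% and 5.92% of the genes for which it gave an adjusted p. The summed level of all 9 was 204 to 583 CPM in vehicle-treated and 143 to 254 CPM in HPβCD-treated animals. This sum holds Cd22, the only marker above 0 (0.56, edgeR adjusted p = 0.0884, DESeq2 0.0357). Cd22 averaged 68.1 CPM in vehicle-treated and 101 CPM in HPβCD-treated animals. Of 9 plasma cell markers, which include 4 of the 10 genes, 7 were below 0 and 2, Jchain and Igkc, were called, with sums of 5419.8 to 18105 CPM and 600.2 to 2531 CPM. DESeq2 called 6 of the 9 lower. Most of these sums came from Ighm (group means of 4914 and 476 CPM), Igkc (3634 and 325 CPM) and Jchain (1596 and 99.6 CPM). They therefore largely repeat the values of Jchain and the antibody chains given above. Sdc1 (0.41) and Slamf7 (0.33) were above 0, and neither was called. Of 10 T lymphocyte markers, 5 were below 0, edgeR called 0 and the median was -0.07 (DESeq2 called Cd4 higher, at 0.49 and an adjusted p of 0.0365), with sums of 125 to 193 CPM and 106 to 260.5 CPM. Plasmacytoid dendritic cells can share some of these genes with plasma cells, and 5 of 5 tested markers of that cell were below 0. Sums over all 6 listed markers were 49.9 to 174 CPM and 10 to 26.7 CPM, and the tested ones had a median of -1.65. That median was -0.81 without vehicle-treated animals 1 and 3, the animals with the most neuron transcripts and with the highest Pacsin1 (24.1 and 124 CPM, against 2.47 and 2.26 CPM in the others). Siglech, the only one called by edgeR (-2.40), is also a microglial gene. DESeq2 called 3 of these markers lower. Markers of conventional dendritic cells had a median of 0.20 and cycling genes one of 0.42, with 0 called in either list by edgeR, and of 6 macrophage markers Gpnmb was called higher (1.38). The part of plasmacytoid dendritic cells in the levels of Jchain, Derl3 and Mzb1 was not tested.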

How the data were processed

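RNA-Seq libraries of 8 infarcts, 4 per group, were analyzed with groups and animal numbers taken from the sample labels, which give no batch. The authors deposited raw counts per gene, 1 table per animal, without normalization. The submitters' processing notes name bcl2fastq 2.19, Trimmomatic 0.32, STAR 2.5.2b, HTSeq, DESeq2 and build GRCm38. Libraries were strand-specific, and the strand option of the counting and the annotation release are not given in the sources used here. Reads assigned to no gene, 26.6% to 36.6% of those counted, were left out. Total gene counts of 16.6 M to 32.9 M per library set the precision, and Bhlha15, Tnfrsf17 and Derl3 had the fewest counts. Symbols matched 45143 of 46078 identifiers, and coordinates are from GENCODE M21 on GRCm38.

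Groups were compared in edgeR 4.0.16 under R 4.3.3 (robust quasi-likelihood F test, TMM, filterByExpr by group, no covariate), with Benjamini-Hochberg adjustment over 14736 genes and a threshold of 0.05. CPM were scaled by library total and TMM factor, log2 CPM used a prior count of 2, and ratios added 2 to each count. Alternatives were DESeq2 1.42.0, limma 3.58.1 (voom with sample weights), other scalings, no filter, a replicate block and fits without single animals. No 2 libraries agreed within sampling noise (lowest chi-square per degree of freedom 20.3). The labels only number the samples within a group, so p-values measure the spread between these samples.

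The 10 genes and all lists were chosen with earlier results of these data known, and no list was tested as a set. A gene of the ER-associated degradation list is not reported here and was taken out of its list. Named were the 10 genes, Sdc1, Ms4a1, Igha, Ighm and Igkc, every called gene of a list, the 3 most abundant genes of each pathway list, and the 5 genes most like Jchain, Xbp1 and Txndc5 apart from immunoglobulin genes. For lists of cell type markers the rule also gave the 3 most abundant genes, which are mostly covered here by the summed levels. Eaf2, Ikzf3, Pou2f2, Pax5, Bach2, Trib3, Sec31a, Kdelr1, Cd4, Pacsin1, Cd22, Cd68, Lyz2, Adgre1, Csf1r, Mrc1 and Slamf7 were added after their values were seen.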

Additional observations from a re-analysis of the deposited data

Results flagged for a closer look

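Of 34 sets of 4 animals examined, 2 held an animal that stood apart from the other 3, where chance gives about 1 in 20 sets, or 1.7. Igha had its lowest vehicle value in animal 2, at a log2 CPM of 6.72, against 8.46 in the nearest and 8.80 in the farthest of the other vehicle-treated animals. Jchain in that animal, at 2184 CPM, was the highest of the group. The log2 ratio of Jchain to all immunoglobulin counts was lowest in vehicle-treated animal 3, at -3.38, against -2.89 and -2.82 in the nearest and farthest of the others. Immunoglobulin genes took 1.95% of gene counts in that library, the highest share of the 8.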

How the results depend on the processing

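The fold changes of Jchain, Bhlha15, Pou2af1, Irf4, Mzb1, Tnfrsf17 and Derl3 were below 0 under all 16 alternatives, and the calls were less stable. The 3 called genes became 6 with DESeq2, 6 with limma-voom, 0 with library totals only and 1 without vehicle-treated animals 1 and 3, and fits without single animals called 0 to 4. Over all genes, 287 calls became 2899 with DESeq2, 3232 with limma-voom and 11 with library totals only, and fits without single animals gave 0 to 629.  The cause was not tested.

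The animal numbers did not pair the samples (correlations of same-numbered animals -0.257, 0.244, 0.329 and 0.0975, and 3 of 8 libraries correlated best with their own number). A replicate block called 9 genes and 0 of the 10 (3478 genes had an unadjusted p under 0.05), with Jchain at -4.27 (edgeR adjusted p = 0.0843). The Jchain to Ms4a1 difference of -2.41 had an exact permutation p of 0.125 in the replicate block, the smallest that 4 pairs allow. It was -1.81 without vehicle-treated animals 1 and 3 (exact permutation p = 0.0667, the smallest allowed) and -2.75 to -1.76 without single animals. The Jchain to immunoglobulin difference was -0.72 to -0.48 without single animals.

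The signs of several fold changes turned, that of Asns from -0.72 and the others from values between -0.17 and 0.24. Without single animals the ranges were -0.29 to 0.04 for Prdm1, -0.20 to 0.13 for Arf4, -0.97 to 0.17 for Asns, -0.12 to 0.17 for Atf4, -0.04 to 0.19 for Bcl6, -0.29 to 0.17 for Itga4, -0.13 to 0.21 for Ssr3, -0.32 to 0.36 for Tnfsf13b and -0.12 to 0.17 for Zbtb20. With limma-voom they were 0.03 for Txndc5, 0.47 for Asns, -0.15 for Ssr3, -0.21 for Tnfsf13b and -0.11 for Zbtb20. With library totals only they were -0.06 for Atf4, -0.02 for Bcl6, -0.03 for Ssr3 and -0.06 for Zbtb20. Without vehicle-treated animals 1 and 3 they were 0.52 for Asns, -0.11 for Bcl6, -0.05 for Edem1, -0.21 for Ssr3 and -0.11 for Zbtb20. Arf4 was 0.01 with no filter and 0.02 in the replicate block. The median of neuron markers moved from -5.85 to 0.05 without vehicle-treated animals 1 and 3.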
